A study of Mus musculus with 40 samples.

Results

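Erythroid genes are those that cells of the red blood cell line use to make haemoglobin, build the red cell membrane and answer to erythropoietin and iron. The 8 genes examined were Hba-a1, Hbb-b1, Alas2, Slc4a1, Klf1, Gata1, Epor and Tfrc, out of 29411 gene symbols on the array. They were named for these roles and found by their symbols, which 11 of the 40628 probes carried: 4 probes of Hbb-b1 and 1 probe of each other gene. The samples were stromal vascular cells of subcutaneous fat, labelled as infiltrating macrophages, from C57BL/6J mice weaned at 3 to 4 weeks of age. The low-fat control (LFC) diet held 10% of calories as fat, and the high-fat control (HFC) diet held 60% and more sucrose. Mice on the diets HF5, HF20 and HF75 ate the high-fat diet and received 5, 20 or 75 µg of Kal-1, an ethno-botanical formulation. LFC and HFC had 1 array each at days 1, 6, 10 and 14, at week 0 and at weeks 3, 6, 9, 12, 15 and 18. HF5 had 1 array at each of weeks 3, 6, 9, 12, 15 and 18, and HF20 and HF75 had 1 at each of weeks 3, 6, 9, 12 and 15. For the liver data of the same study, the paper counts weeks from day 14 and takes day 14 and week 0 as the same time. They are kept as separate time points here, by their labels.

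Of 40 arrays, 38 were used. The other 2, both of week 18, carried labels that conflicted between HF20 and HF75. Each diet held 30 animals, of which 5 were taken every 3 weeks, and the number of mice behind 1 array is not stated. The study design speaks of 3 biological replicates, but the labels give 1 array per diet and time point. The p-values below therefore measure only the spread between arrays, part of which may be technical, and with so few arrays every difference has a wide interval.

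Haemoglobin is a tetramer of alpha and beta globin chains that each carry a haem group, and globin mRNA is by far the most abundant message of late erythroid precursors and young red cells. Gata1 and Klf1 are transcription factors that switch on the globin genes and many other genes of the line. Macrophages take up aged red cells and return their iron to the blood.

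Levels are given as log2 values, in which 0 is the 75th percentile of all probes on the same array and 1 unit is a doubling. A probe was called well above background where the scanner software marked it so. A probe that was not so marked on an array is called dim here. Where it lay below the lowest level well above background on that array, it was raised to that level. A saturated spot was too bright for the scanner, so that its level is a lower bound and follows the brightness of the array. Macrophage markers were present on these arrays: on the median array 11 of 11 were well above background, and their mean level was -0.25 (lowest -2.40 on HFC day 1). The mean of 1.42 on LFC week 3, where 3 of 11 were well above background, is mostly the level given to dim probes, and the next highest was 0.67 on HFC week 6. Fibroblast markers had a median level of 4.48, endothelial markers of 2.05, adipocyte markers of 1.60, B cell markers of -2.17, T cell markers of -1.65 and skeletal muscle markers of 1.01.

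Several LFC arrays stood apart, and many results of the 8 genes are given with and without them. List medians and list counts in comparisons that use LFC are given only with these arrays included. On LFC week 3 only 17.2% of probes were well above background. The dim probes of the 8 genes there all stood at 1.1, so that a value of 1.1 on this array is no measurement of the gene. On LFC day 14 the software marked 9104 spots as outliers, and this array had the lowest median rank correlation with the other arrays, 0.463, followed by LFC week 3 with 0.486. LFC week 18 had the next lowest, 0.83. At week 9, 4 arrays, those of LFC, HFC, HF5 and HF20, carried the letters WS in their titles and that of HF75 did not. Week 9 was therefore also left out once. The 35 arrays below are the 38 without LFC week 3, LFC day 14 and LFC week 18. Leaving out LFC week 18 together with the others was chosen after seeing the data, here and in the fits below.

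LFC week 18 was the array on which most of these genes peaked. Slc4a1 reached 6.75 there (saturated), Alas2 6.51, Tfrc 4.62, Epor 4.2, Klf1 4.02 and Gata1 2.41, each the highest level of that gene over the 38 arrays. The globins were saturated there at 6.44 for Hba-a1 and 6.61 for Hbb-b1, so that their rank among the arrays cannot be read. Of the other red cell lists, 4 had their highest mean on this array, while other globins ranked 3, erythropoietin signalling 8 and iron genes 29 of the 38. By gene, 8 of 10 haem synthesis genes, 12 of 16 red cell membrane genes, 7 of 11 red cell enzymes and late genes and 8 of 12 erythroid transcription factors had their peak there. So did 1123 of 20153 genes in all, or 5.57%. The count was 2 of 10 for erythropoietin signalling, 3 of 19 for iron uptake, storage and export, and 0 of 4 for the other globins.

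Markers of other cells moved on the same array. The 9 neutrophil markers, all well above background, had a mean of 5.33 and a log2 summed level of 9.03, with Camp the brightest at 6.64, while the mean on the 35 arrays ran from -4.89 to 1.63. The 6 myeloid precursor markers had a mean of 4.14 and a summed level of 7.85, with Mpo the brightest at 6.62, against -3.58 to -0.59 on the 35 arrays. The 10 cell cycle genes had a mean of 4.22 and a summed level of 8.23, with Mki67 the brightest, against -3.46 to 1.44. Markers of fibroblasts, fat cells, endothelium and skeletal muscle were low on LFC week 18. Of 7 fibroblast markers 2 were well above background, their summed level was -1.48, and Col3a1, Dcn, Lum, Pdgfra and Dpt were dim. Of 11 adipocyte markers 5 were well above background, the summed level was 2.68 with Slc2a4 the brightest, and Adipoq, Lep, Plin1, Cidec, Retn and Ucp1 were dim. Of 7 endothelial markers 5 were well above background, with a summed level of 0.53 and Tek and Emcn dim, and of 5 skeletal muscle markers 2 were. Of 11 macrophage markers 10 were well above background, with a summed level of 4.69 and a mean of 0.19 that ranked 6 among the 38 arrays. Most of the fibroblast markers were thus not well above background on an array labelled as stromal vascular cells of fat. Whether it holds the labelled tissue, and what part these cells had in its levels of the erythroid genes, was not tested.

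**Figure D1:**
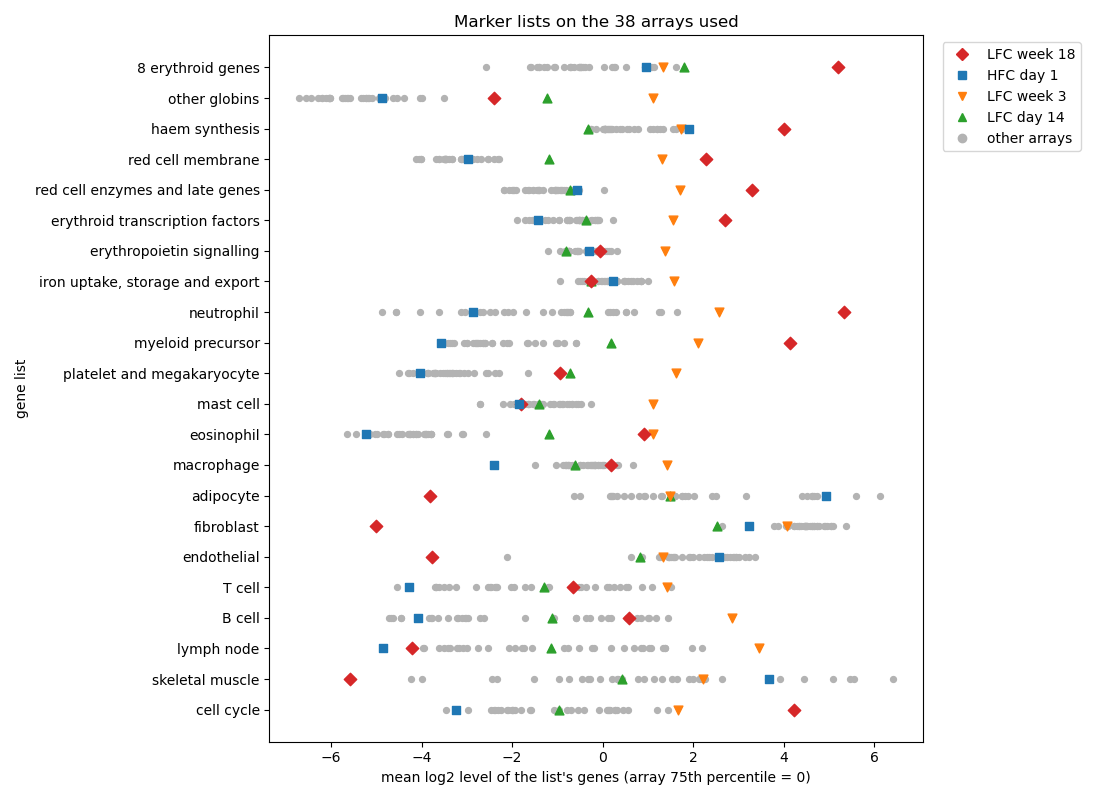
Mean log2 level of each marker list on each of the 38 arrays, with 0 at the 75th percentile of the array. LFC week 18 and the other named arrays have their own symbols, and on LFC week 3 most values stand at the level given to dim probes.

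Hba-a1, the alpha chain of haemoglobin, was well above background on 37 of 38 arrays and saturated on 13 of them. Its lowest, median and highest levels were 1.1 (dim, week 3), 5.59 and 7.06 (day 10) on LFC, 3.85 (week 15), 6.18 and 7.81 (week 18) on HFC, and 3.22 (week 12), 5.24 and 6.16 (week 18) on HF5. On HF20 the levels at weeks 3, 6, 9, 12 and 15 were 4.12, 5.03, 5.47, 4.36 and 5.47. On HF75 they were 2.63, 3.05, 7.21, 5.13 and 1.31. The ranges of the 5 diets overlapped, and HF75 week 15 had the lowest level of the 35 arrays. The highest levels of LFC and HFC were saturated, so that the high arrays cannot be ranked.

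Hbb-b1, the beta chain, was well above background on all 38 arrays and saturated on 23 of them, so that its high values are lower bounds more often than those of Hba-a1. Its lowest, median and highest levels were 2.36 (week 3), 5.69 and 7.24 (day 10) on LFC, 4.78 (week 15), 6.37 and 8.56 (day 6) on HFC, and 4.42 (week 12), 5.76 and 7.17 (week 18) on HF5. On HF20 they were 4.94, 5.23, 5.58, 5.46 and 5.91 at weeks 3, 6, 9, 12 and 15. The HF75 array of week 9 was again high and that of week 15 low, with 3.60, 4.92, 7.25, 5.70 and 2.40 in the same order. The other 3 probes of Hbb-b1, saturated on 2, 9 and 8 of 38 arrays, followed the main probe with Pearson correlations of 0.83, 0.88 and 0.94. By RefSeq transcripts, 2 of the 4 probes list Hbb-b2 and Hbb-bt, the other 2 list only Hbb-bt, and the Hba-a1 probe lists Hba-a1 and Hba-a2. The first 2 of these probes do not separate the adult beta globin genes they list, nor does the Hba-a1 probe separate the adult alpha globin genes. The embryonic globins were mostly dim: of the 4 other globins on the array, Hbb-bh1, Hbb-y, Hba-x and Hbq1, only 1 reached that mark on 50% or more of the arrays.

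Alas2, which makes the first intermediate of haem in erythroid cells, was well above background on 37 arrays and saturated on none. On LFC its levels were 3.72, 2.67, 3.83 and 2.28 at days 1, 6, 10 and 14, 1.39 at week 0, and 1.1 (dim), -0.50, -0.08, 0.56, -0.69 and 6.51 at weeks 3, 6, 9, 12, 15 and 18. On HFC the same time points gave 2.87, 2.75, 4.42 and 3.77, then 0.53, then 1.1, 3.18, 0.70, 0.57, -1.17 and 3.22. The arrays of days 1 to 14 were high on either diet, the arrays of weeks 9 to 15 low, and those of week 18 high again. The HF5 levels ran from -1.44 (week 15) over a median of 0.36 to 2.08 (week 18). On HF20 they were -0.70, 0.49, 0.57, -0.76 and 0.89 and on HF75 -1.23, -0.62, 2.03, -0.70 and -2.84 at weeks 3, 6, 9, 12 and 15. HF75 week 15 was the lowest of the 38 arrays for Alas2.

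Slc4a1, the anion exchanger known as band 3 of the red cell membrane, was well above background on 35 of the 37 arrays with a value. It had no value on LFC day 14, where its spot was marked as an outlier. Its lowest, median and highest levels were -4.27 (week 15), -1.54 and 6.75 (week 18) on LFC, -4.39 (week 12), -1.77 and 1.25 (week 6) on HFC, and -5.12 (week 12), -2.99 and -0.76 (week 18) on HF5. At weeks 3, 6, 9, 12 and 15 the HF20 arrays gave -4.92, -3.29, -3.18, -4.57 and -2.61, and the HF75 arrays gave -5.26 (dim), -3.74, -1.33, -3.93 and -5.46. As with Alas2, the HF75 array of week 9 was the highest of its diet.

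Klf1 and Gata1 were near the limit of detection. Klf1 was well above background on 15 of 38 arrays: 3 of LFC, 8 of HFC, 4 of HF20 and 0 of HF5 and HF75. It stood at 4.02 on LFC week 18 and at -0.15 on LFC day 14, and on HFC it ran from -6.74 (week 15) over -5.74 to -2.59 (day 6). Gata1 was well above background on 22 of 38 arrays, 6 of LFC, 8 of HFC, 3 of HF5, 2 of HF20 and 3 of HF75. Its level was 2.41 on LFC week 18, and on HFC it ran from -7.07 (week 0) over -5.50 to -3.14 (day 6). Outside LFC week 3, day 14 and week 18, each of the 2 genes stayed far below the 75th percentile of its array.

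Epor, the erythropoietin receptor, was well above background on 36 of the 37 arrays with a value, and had none on LFC day 14. Its lowest, median and highest levels were -2.53 (week 6), 0.50 and 4.2 (week 18) on LFC, -1.65 (week 18), -0.46 and 2.16 (day 6) on HFC, and -2.62 (week 3), -0.66 and 1.03 (week 9) on HF5. On HF20 they were -0.15, -1.60, 0.93, 0.45 and 0.78, and on HF75 -1.12, -0.46, -1.71, -2.08 and -1.60, at weeks 3, 6, 9, 12 and 15. In contrast to the globins, Epor was low on the HF75 array of week 9.

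Tfrc, the transferrin receptor through which dividing cells and erythroid precursors take up iron, was well above background on all 38 arrays. Its lowest, median and highest levels were -2.20 (day 1), -0.87 and 4.62 (week 18) on LFC, -2.75 (week 9), -1.09 and 4.23 (day 1) on HFC, and -1.73, -1.26 and -0.56 on HF5. On HF20 it was -1.66, -1.01, -1.53, -0.96 and -1.51 and on HF75 -0.92, -1.61, -0.87, -2.04 and -1.96 at weeks 3, 6, 9, 12 and 15. Tfrc was thus high on LFC week 18 and on HFC day 1, and on the 34 arrays left without HFC day 1 and the 3 LFC arrays it ran from -2.75 to 0.59. On HFC day 1 the 11 macrophage markers, all well above background, had their lowest mean of the 38 arrays, -2.40, and a summed level of 1.98 with Emr1 the brightest. The 11 adipocyte markers there had a mean of 4.93 and a summed level of 9.12 with Ucp1 the brightest, and the 10 haem synthesis genes had a mean of 1.91, the second highest of the 38 arrays. The other red cell lists ranked 5 (enzymes and late genes), 11 (other globins), 13 (membrane), 17 (iron genes), 19 (erythropoietin signalling) and 34 (transcription factors) from the highest. The part of these cells in the Tfrc level of that array was not tested.

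**Figure D2:**
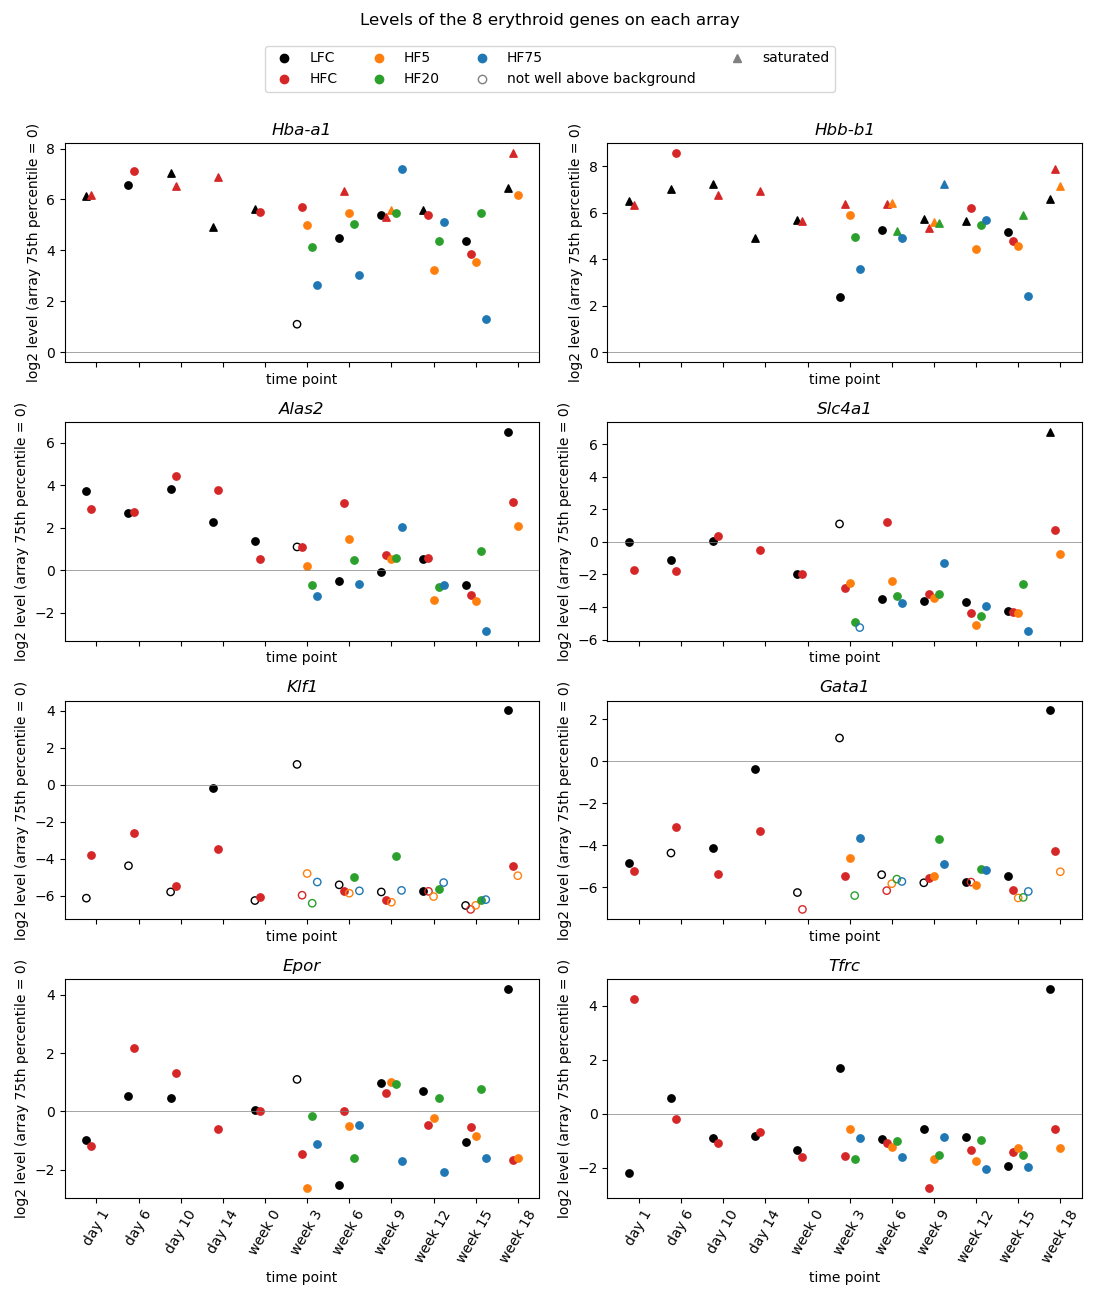
Log2 level of each of the 8 genes on each of the 38 arrays, with 0 at the 75th percentile of the array. Open symbols were not well above background, triangles were saturated and are lower bounds, and colours give the diet.

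Over weeks 3 to 15, where each diet had 5 arrays, the mean levels gave an order of diets for each gene. For Alas2 it was HFC 0.88 (SD 1.55), HF20 0.09 (0.77), LFC 0.08 (0.74), HF5 -0.13 (1.26) and HF75 -0.67 (1.75), and without the dim LFC array LFC moved below HF5 with -0.18. For Hba-a1 it was HFC 5.31 (0.91), HF20 4.89 (0.63), HF5 4.57 (1.11), LFC 4.18 (1.81) and HF75 3.86 (2.32), and without the dim LFC array LFC moved to second place with 4.95. HFC stood first and HF75 last for Hba-a1, Hbb-b1, Alas2 and Slc4a1, with the means of the globins taken over saturated arrays as well. For Epor the order was HF20 0.08 (1.03), LFC -0.16 (1.58), HFC -0.36 (0.76), HF5 -0.63 (1.32) and HF75 -1.39 (0.62), and without the dim LFC array LFC moved below HFC with -0.47. For Tfrc it was LFC -0.52 (1.35), HF5 -1.30 (0.47), HF20 -1.34 (0.33), HF75 -1.48 (0.56) and HFC -1.62 (0.65). For Klf1 and Gata1 no order can be read, since dim arrays set most of the means. Of the 24 gaps between neighbours in the orders of the other 6 genes, 20 were smaller than the smaller of the 2 SDs. The 4 others were HFC over HF20 for Hbb-b1 and Alas2, HF5 over HF75 for Epor, and LFC over HF5 for Tfrc, the last of which was below the SD without LFC week 3, where Tfrc was well above background.

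The genes of mature red cells varied together from array to array. Over the 35 arrays, Hba-a1 and Hbb-b1 had a Pearson correlation of 0.946 (Spearman 0.928), Hba-a1 and Alas2 0.893 (0.929), Alas2 and Slc4a1 0.934 (0.931), and Hba-a1 and Slc4a1 0.834 (0.893). With the mean of each time point taken away, the same pairs gave 0.928, 0.892, 0.886 and 0.779 over 34 arrays, so that arrays of 1 time point also differed in these genes together. Over all 38 arrays, Hba-a1 and Alas2 gave 0.749 (0.845) and Hba-a1 and Slc4a1 0.513 (0.755, over 37 arrays), and the globins were saturated on LFC week 18. Klf1, Gata1, Epor and Tfrc had Pearson correlations with Alas2 of 0.462, 0.431, 0.242 and 0.355 over the 35 arrays, and within time points of -0.087, -0.104, 0.203 and -0.020. Klf1 and Gata1 gave 0.771 (0.735) with each other, a value to which dim probes can add, since those that were raised share 1 level on an array. Arrays share diets, time points and scan days, and saturated spots share the brightness of the array, so that these are descriptions.

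Among the 20152 other genes that were well above background on 50% or more of the 38 arrays, the 5 with the highest Pearson correlation were looked up for each gene except Klf1, which was dim on too many arrays. For Hba-a1 they were Hbb-b1, Alas2, LOC100048537, Fam96a and Gm5226, and for Hbb-b1 they were Hba-a1, Alas2, Hsp90ab1, Rn18s and Oaz1. For Alas2 they were Gm5226 (0.907), Slc4a1 (0.902), Apol11b (0.785), Hba-a1 (0.749) and Ube2l6 (0.746). For Slc4a1 they were Eraf (0.925), the chaperone of free alpha globin, Alas2, Apol11b, Slc25a37, the mitochondrial iron importer, and Gm5226. Each of Hba-a1, Hbb-b1, Alas2 and Slc4a1 thus had at least 1 of the other 3 among its nearest genes. The list for Gata1 began with Gm1964 (0.935), Prssl1 (0.902) and Prtn3 (0.898), a protease of myeloid precursors, followed by Mylk3 and Ccne2. The list for Tfrc was Wdr51a (0.794), Narf, Dhrs11, Gmps and Atg4d, and that for Epor was 1810011H11Rik (0.875), Asb1, Dhdds, Gm10124 and Gtlf3b. On the 35 arrays the list for Gata1 was Dctd, LOC674665, Olfr913, Fv1 and Nwd1 and that for Tfrc was LOC100047799, Nampt, Gm5785, Kng2 and Ciapin1, with no gene kept in either. There the list for Epor became 1810011H11Rik (0.883), Gcgr (0.866), Tmem86a (0.851), Msmp (0.836) and Aqp7 (0.823), the glycerol channel of fat cells. There Epor also had a Pearson correlation of 0.641 (Spearman 0.588) with the mean of the 11 adipocyte markers, 0.505 within time points, and of -0.582 (-0.604) with that of the 9 neutrophil markers.

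Promoters of the genes that varied together are shown beside Klf1, whose product binds CACCC motifs, as Gata1 binds GATA motifs. RefSeq promoters, the 250 bases before the start in build GRCm38.p6, were found for 6 of the 8 genes, with 2 for Tfrc, and none was found for Hbb-b1 and Slc4a1. The GATA motif was searched as AGATAA or AGATAG or TGATAA or TGATAG and the CACCC motif as CCACCC or CACACCC, on both strands, and no match of one overlapped a match of the other. Of 32851 promoters, 8718 (26.5%) held GATA and 10729 (32.7%) held CACCC. Matches to GATA were found for 4 of the 6 genes, Hba-a1, Alas2, Klf1 and Epor, and matches to CACCC for all 6. In Hba-a1 (chr11:32283422-32283671, plus strand) TGATAA lay 183 to 178 bases before the start. In Alas2 (chrX:150547167-150547416, plus strand) AGATAA lay 86 to 81 bases before it on the opposite strand, followed by 3 overlapping CCACCC on that strand. In Klf1 (chr8:84901732-84901981, plus strand) TGATAA lay 80 to 75 bases before the start on the opposite strand, and CACACCC lay 116 to 110 bases before it. Capitals mark the matches, which describe the letters and are not shown to be sites.
Hba-a1: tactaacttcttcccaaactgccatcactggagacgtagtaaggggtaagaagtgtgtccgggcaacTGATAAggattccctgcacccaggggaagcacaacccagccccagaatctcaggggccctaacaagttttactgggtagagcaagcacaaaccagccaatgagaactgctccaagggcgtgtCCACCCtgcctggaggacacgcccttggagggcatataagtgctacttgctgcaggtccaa
Alas2: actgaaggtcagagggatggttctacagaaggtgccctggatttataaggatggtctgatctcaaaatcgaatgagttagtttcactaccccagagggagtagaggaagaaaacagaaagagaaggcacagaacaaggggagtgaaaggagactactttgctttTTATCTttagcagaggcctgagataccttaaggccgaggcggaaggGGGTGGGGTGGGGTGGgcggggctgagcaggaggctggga
Klf1: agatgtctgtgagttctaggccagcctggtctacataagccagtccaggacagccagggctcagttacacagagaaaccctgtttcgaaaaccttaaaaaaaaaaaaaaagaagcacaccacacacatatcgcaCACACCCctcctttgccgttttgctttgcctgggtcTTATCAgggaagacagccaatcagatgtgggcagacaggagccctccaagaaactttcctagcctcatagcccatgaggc

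Comparing HFC with LFC at the same 11 time points, Hba-a1 had a log2 difference of 0.82 (95% confidence interval -0.15 to 1.79), Hbb-b1 of 0.82 (-0.07 to 1.72) and Alas2 of 0.11 (-0.94 to 1.15). The globin values are no measure of a difference, since 8 of the 11 pairs of Hba-a1 and 10 of 11 of Hbb-b1 held a saturated spot, and the 2 pairs of Hba-a1 measured on both arrays gave 0.56 (day 6) and -0.51 (week 15). The Hbb-b1 probe with the fewest saturated spots gave 0.59 (-0.42 to 1.59) and was higher on HFC in 4 and lower in 4 of the 8 pairs measured on both arrays. The other differences were below 0: Slc4a1 -0.76 (-2.43 to 0.90), Klf1 -1.38 (-3.29 to 0.54), Gata1 -1.69 (-3.20 to -0.19), Epor -0.47 (-1.88 to 0.95) and Tfrc -0.48 (-2.08 to 1.13). Klf1 was well above background on both arrays in only 2 of 11 pairs, day 14 and week 18, and Gata1 in 5 of 11. At week 18 alone HFC minus LFC was -3.29 for Alas2, -6.03 for Slc4a1 (saturated on LFC, so that the gap is at least this large), -8.44 for Klf1, -6.71 for Gata1, -5.85 for Epor and -5.17 for Tfrc. At week 3 it was -3.26 for Tfrc, and -3.95 for Slc4a1 and -7.07 for Klf1, both dim on LFC. At week 6 it was 4.73 for Slc4a1, so that these estimates rest on those weeks too. Without weeks 3 and 18 and day 14 the differences were 0.13 for Hba-a1, 0.22 for Hbb-b1, 0.37 for Alas2, 0.30 for Slc4a1, 0.46 for Klf1, -0.29 for Gata1, 0.47 for Epor and 0.38 for Tfrc, so that the signs of Slc4a1, Klf1, Epor and Tfrc turned and that of Gata1 did not. Leaving out week 18 alone gave -0.18 for Slc4a1, -0.67 for Klf1 and -0.01 for Tfrc and turned Epor to 0.13, leaving out day 1 gave -1.17 for Tfrc, leaving out week 6 or day 14 alone turned Alas2 to -0.25 or -0.03, and quantile normalization turned Alas2 to -0.02. In these bulk samples, fewer cells of a type and less RNA per cell cannot be told apart.

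In the test, limma compared the diets with time points as blocks and adjusted p-values for all probes tested by the method of Benjamini and Hochberg, and an adjusted p under 0.05 was the threshold throughout. Of the 8 genes, all tested between HFC and LFC, 0 passed, and of all 29215 probes 0 passed as well (0%). With day 14 and week 0 taken as 1 time point, 0 probes passed too. At an unadjusted p under 0.05 limma counted 719 probes, among them that of Gata1 (unadjusted p = 0.0297, adjusted p = 0.885, lower on HFC in all 5 pairs with both arrays well above background). The methods' t-test, run here unpaired on the 11 arrays of each diet over all time points where the study compared 3 treated with 3 control values, counted 350 probes unadjusted and 0 adjusted, with 0 of the 8 genes in either. The median difference of the 8 genes was -0.47 and that of all probes was -0.18. The median of all probes turned to 0.06 without week 3, and to 0.03 without weeks 3 and 18 and day 14. In the latter fit only Gata1 of the 8 genes lay below 0. With all time points, no gene of the other lists passed. Of the 10 haem synthesis genes 1 lay above 0 with a list median of -0.52, against a median of -0.13 over all genes. The list medians were -0.81 for the red cell membrane, -0.58 for red cell enzymes and late genes, -0.23 for erythroid transcription factors, 0.23 for erythropoietin signalling and -0.13 for iron genes, and the 1 other globin tested lay at -0.22. Beside them, 9 of 9 neutrophil markers lay below 0 (median -0.90), and 7 of 7 fibroblast markers (1.27) and 7 of 7 endothelial markers (0.98) lay above 0. All list values of this comparison include LFC week 3, day 14 and week 18 and were not computed without them. On LFC week 18 the neutrophil mean was 5.33, against -4.89 to 1.63 on the 35 arrays. The fibroblast mean there was -5.01, against 2.64 to 5.37, and the endothelial mean -3.77, against -2.13 to 3.36. How far LFC week 18 set these medians was not tested.

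Against HFC in the same 6 weeks, HF5 had lower levels of the red cell genes on most pairs of arrays. For Alas2 the differences at weeks 3, 6, 9, 12, 15 and 18 were -0.90, -1.72, -0.17, -1.96, -0.27 and -1.13, all below 0. For Hba-a1 they were -0.69, -0.85, 0.27, -2.17, -0.29 and -1.65, and for Slc4a1 0.33, -3.65, -0.27, -0.73, -0.05 and -1.48. The limma estimates were -1.03 (-1.67 to -0.39) for Alas2, -0.90 (-1.63 to -0.16) for Hba-a1, -0.47 (-1.1 to 0.17) for Hbb-b1 and -0.98 (-2.09 to 0.14) for Slc4a1, with Slc4a1 at -0.44 without week 6 and Hbb-b1 at -0.21 without week 12. Of the 6 pairs, 3 of Hba-a1 and 4 of Hbb-b1 held a saturated spot, so that their estimates and p-values rest in part on bounds. For Hba-a1 both spots of week 9 were saturated and the direction there cannot be read. The other 3 probes of Hbb-b1, saturated in 0, 1 and 1 of 6 pairs, gave -0.86, -0.73 and -0.88. Klf1 gave no fold, since it was dim on 6 of 6 HF5 arrays and on 3 of 6 HFC arrays, and Gata1 gave -0.03, Epor -0.21 and Tfrc 0.16, with Tfrc at -0.20 under normexp and the sign of Gata1 and Tfrc turning where single weeks were left out. Gata1 was well above background on both arrays in 2 of 6 pairs, and higher on HF5 in both. Epor was higher in 3 and lower in 3 pairs, with differences from -1.18 (week 3) to 0.40 (week 9). None of the 8 genes passed the threshold, nor did any of 29200 probes (0%). At an unadjusted p under 0.05 limma counted 1360 probes, among them those of Alas2 (unadjusted p = 0.00590, adjusted p = 0.975, lower in 6 of 6 pairs) and Hba-a1 (unadjusted p = 0.0230, adjusted p = 0.975, lower in all 3 pairs measured on both arrays). The 3 other probes of Hbb-b1 were among them too, with unadjusted p-values in limma of 0.00416, 0.0230 and 0.00844 (adjusted p = 0.975 each).

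The median of the 7 genes other than Klf1 between HF5 and HFC was -0.47, and that of all probes 0.01. No list had a gene past the threshold. In the marker lists the genes above 0 were 0 of 7 for fibroblasts (median -0.51), 0 of 7 for endothelium (-0.54), 0 of 10 for cell cycle (-0.52), 0 of 5 for B cells (-0.40), 0 of 6 for myeloid precursors (-0.28), 1 of 6 for T cells (-0.45), 1 of 11 for macrophages (-0.45), 1 of 11 for adipocytes (-0.43), 2 of 5 for lymph node (-0.34), 2 of 7 for mast cells (-0.09), 3 of 8 for platelets and megakaryocytes (-0.19), 3 of 5 for eosinophils (0.00), 4 of 5 for skeletal muscle (0.10) and 7 of 9 for neutrophils (0.63). The lists of the red cell line had medians of -0.12 for haem synthesis, -0.44 for the membrane, -0.34 for enzymes and late genes, -0.06 for transcription factors, 0.01 for erythropoietin signalling and -0.22 for iron genes. The 1 other globin tested lay at -0.93. Whether these cells had a part in the differences of the globins and Alas2 was not tested.

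Between HF20 and HFC, over 5 pairs, the estimates were -0.42 (-1.61 to 0.76) for Hba-a1, -0.38 (-1.37 to 0.60) for Hbb-b1, -0.78 (-2.36 to 0.80) for Alas2 and -1.02 (-3.03 to 1.00) for Slc4a1, with a saturated spot in 2 of 5 pairs of Hba-a1 and 4 of 5 of Hbb-b1. The differences at weeks 3, 6, 9, 12 and 15 were -1.80, -2.69, -0.13, -1.33 and 2.05 for Alas2 and -2.07, -4.54, 0.01, -0.18 and 1.71 for Slc4a1, so that week 15 ran against most other weeks. Without week 6 the estimates were -0.30 for Alas2 and -0.13 for Slc4a1, and without week 15 they were -1.49 and -1.70, with Hba-a1 at -0.94 and Hbb-b1 at -0.76. Without week 3 the globins stood at -0.14 and -0.12. The other 3 probes of Hbb-b1, saturated in 0, 1 and 1 of 5 pairs, gave -0.32, -0.67 and -0.54 over all 5 pairs. The estimates of Klf1, Gata1, Epor and Tfrc lay above 0, at 0.66, 0.35, 0.45 and 0.29, of which Klf1, Gata1 and Tfrc turned to -0.83, -0.97 and -0.13 under background correction by normexp, and Gata1 to -0.10 under quantile normalization and -0.03 without week 9. Klf1 was well above background on both arrays in 2 of 5 pairs and Gata1 in 1 of 5. The largest differences of Klf1 and Tfrc, 2.34 and 1.23, were those of week 9. Those of Epor ran from -1.60 (week 6) to 1.33 (week 15). Of the 8 genes 0 passed, as did 0 of 30831 probes (0%). At an unadjusted p under 0.05 limma counted 3382 probes and 0 of the 8 genes, with medians of -0.05 for the 8 genes and 0.08 for all probes. Of the haem synthesis genes 8 of 10 lay above 0 (median 0.61), of the adipocyte markers 11 of 11 (1.73), and of the neutrophil markers 0 of 9 (-1.19). The medians were -0.37 for the red cell membrane, 0.17 for enzymes and late genes, -0.45 for transcription factors, -0.45 for erythropoietin signalling and 0.14 for iron genes. The 1 other globin tested lay at 0.05.

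HF75 had the widest spread of recorded levels over weeks 3 to 15 in the globins and Alas2, with an SD of 2.32 for Hba-a1, 1.87 for Hbb-b1 and 1.75 for Alas2. The differences from HFC at weeks 3, 6, 9, 12 and 15 were -3.07, -3.29, 1.89, -0.25 and -2.54 for Hba-a1, -2.33, -3.80, 1.33, -1.27 and -1.67 for Alas2, and 0.32, -0.46, -2.33, -1.62 and -1.05 for Epor. Week 9 thus ran against the other weeks for Alas2. In that pair the HFC array carried WS in its title and the HF75 array did not, and the part of this was not tested. For Hba-a1 the direction at week 9 cannot be read: the HFC spot was saturated at an intensity of 64492, the HF75 spot stood at 65100, and the 75th percentiles of the arrays were 1623.38 and 441. Over the 5 pairs 2 of Hba-a1, weeks 6 and 9, and 3 of Hbb-b1 held a saturated spot, and the 3 other pairs of Hba-a1 all lay below 0. The limma estimates were -1.45 (-3.27 to 0.37) for Hba-a1, -1.03 (-2.58 to 0.52) for Hbb-b1, -1.55 (-3.10 to 0.00) for Alas2 and -1.25 (-3.38 to 0.89) for Slc4a1. Without week 9 they were -2.29, -1.77, -2.27 and -2.02, and without week 6 Alas2 stood at -0.98 and Slc4a1 at -0.31. The other 3 probes of Hbb-b1, saturated in 0, 1 and 1 of 5 pairs, gave -1.66, -1.38 and -1.52. Slc4a1 was higher on HF75 in 2 and lower in 2 of the 4 pairs measured on both arrays. Gata1 gave 0.68 (-0.05 to 1.41), Epor -1.03 (-1.97 to -0.09) and Tfrc 0.15 (-0.85 to 1.14), and under normexp Gata1 turned to -0.42 and Tfrc to -0.22, and without week 9 Tfrc stood at -0.29. Gata1 was well above background on both arrays in 2 of 5 pairs. Klf1, dim on all 5 HF75 arrays and well above background on 2 of 5 HFC arrays, was not tested.

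Of the 7 genes tested between HF75 and HFC, 0 passed, while 270 of 28910 probes did (0.934%), 210 of them higher and 60 lower on HF75. The number of probes past the threshold was 0 without week 3, 13 without week 6, 97 without week 12 and 20 without week 15. At an unadjusted p under 0.05 limma counted 4410 probes, among them that of Epor (unadjusted p = 0.0356, adjusted p = 0.284, lower in 4 of 5 pairs). The median of the 7 genes was -1.03 and that of all probes 0.03. Among the lists, Dpt of the fibroblast markers fell by 2.43 on the log2 scale with HF75 (adjusted p = 0.0400 by limma, lower in 5 of 5 pairs), the only 1 of the 7 to pass, with 2 of 7 above 0 and a list median of -0.83. No gene of the red cell lists passed, with medians of -0.23 for haem synthesis, -0.13 for the membrane, -0.10 for enzymes and late genes, 0.31 for transcription factors and -0.53 for iron genes. Erythropoietin signalling had a median of -0.10, and the 1 other globin tested lay at -0.54. Macrophage markers had a median of -0.96 (2 of 11 above 0) and neutrophil markers of 0.94 (9 of 9). The 3 comparisons with Kal-1 and that of HFC with LFC use the same HFC arrays and are not independent of each other.

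**Figure D3:**
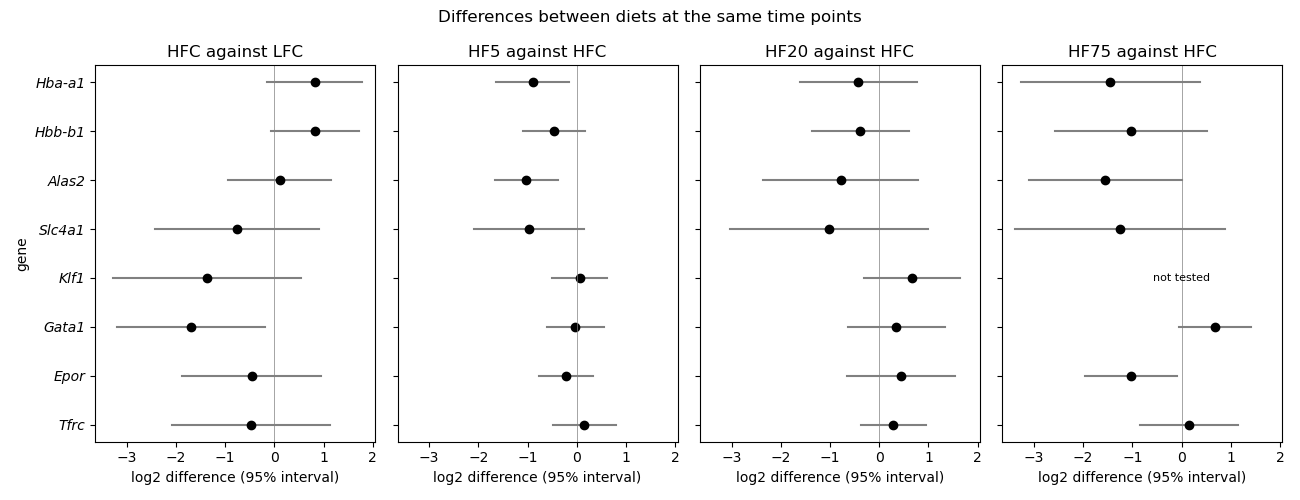
Log2 difference of each gene between diets at the same time points, with 95% confidence intervals from limma. Klf1 was not tested between HF75 and HFC and was dim on all HF5 arrays, so that its value there is no measure of a difference. The globin values include pairs with saturated spots.

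On LFC and HFC, early and later arrays were set side by side. Of the 10 early arrays 7 were saturated for Hba-a1 and 9 for Hbb-b1, and none for Alas2. Over the 10 arrays of day 1 to week 0, Alas2 had a lowest, median and highest level of 0.53, 2.81 and 4.42, and over the 12 arrays of weeks 3 to 18 of -1.17, 0.63 and 6.51. The ranges overlapped, and 4 of the 12 later arrays lay below the lowest early one. For Slc4a1, 8 of 12 later arrays lay below the lowest early level of -1.98, the exceptions being LFC week 3 (dim), LFC week 18, HFC week 6 and HFC week 18. For Hba-a1 4 of the 12 later arrays, among them LFC week 3 (dim), lay below all early ones as recorded, and for Hbb-b1 2 did. The lowest early level of both globins was that of LFC day 14, which was saturated and so a lower bound. The limma estimates, late minus early, were -1.62 (-3.22 to -0.01) for Alas2, -1.11 (-2.31 to 0.09) for Hba-a1, -0.92 (-2.01 to 0.17) for Hbb-b1 and -0.76 (-3.16 to 1.64) for Slc4a1, which moved to -0.24 without week 15 and -1.80 without week 18. Without the 3 LFC arrays they were -2.20, -0.97, -0.85 and -1.80. Of the 12 later arrays 5 were saturated for Hba-a1 and 7 for Hbb-b1, so that the globin estimates and their intervals rest on bounds at either end. Klf1 gave -0.03, Gata1 0.05, Epor -0.22 and Tfrc -0.16, and the first 2 and Tfrc took the other sign under quantile normalization or normexp, as did Epor without day 6 (0.08), and those of Klf1, Gata1 and Tfrc also turned where single time points were left out.

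Of the 8 genes 0 passed between late and early arrays, as did 0 of 30259 probes (0%). At an unadjusted p under 0.05 limma counted 762 probes, among them that of Alas2 (unadjusted p = 0.0482, adjusted p = 1.00) and the 3 other probes of Hbb-b1, with differences of -1.93, -1.13 and -1.30. The median of the 8 genes was -0.49 and that of all probes 0.06. The latter turned to -0.14 without week 3 and to -0.17 without the LFC arrays of week 3 and day 14. Of the other red cell lists, 8 of 10 haem synthesis genes (median 0.23), 10 of 11 membrane genes (0.26), 6 of 10 enzymes and late genes (0.09), 6 of 12 transcription factors (0.07), 10 of 19 iron genes (0.06), 4 of 9 genes of erythropoietin signalling (-0.01) and 1 of 3 other globins (-0.33) lay above 0. Of the adipocyte markers 1 of 11 lay above 0 (median -2.19), of the endothelial markers 0 of 7 (-1.25) and of the cell cycle genes 0 of 10 (-0.90). The list values of this comparison include the 3 LFC arrays that stood apart and were not computed without them. Time points and scan days cannot be told apart.

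Whether the HFC effect differed between late and early time points was tested by limma as an interaction. The globin estimates, 0.79 for Hba-a1 and 0.46 for Hbb-b1, come from the pairs with saturated spots above and are no measure of a difference. The others were 0.03 for Alas2, -0.41 for Slc4a1, -3.02 (-6.63 to 0.60) for Klf1, -1.58 for Gata1, -1.71 for Epor and -2.87 (-5.79 to 0.06) for Tfrc. Tfrc stood at -1.53 without day 1, where HFC minus LFC was 6.43, and Klf1, measured on both arrays in 2 of 11 pairs, at -1.88 without week 18. Without week 18 Gata1 stood at -0.72 and Epor at -0.77. The signs of Alas2, Slc4a1, Klf1 and Gata1 turned under normexp, that of Hbb-b1 without week 3 (-0.14), that of Alas2 without week 6 (-0.69) or single other time points, and those of Slc4a1 and Gata1 without the 3 time points of the arrays that stood apart. The sign of Slc4a1 also turned without week 3 alone (0.19) or week 18 alone (0.61). Of the 8 genes 0 passed, as did 0 of 29215 probes (0%), and at an unadjusted p under 0.05 limma counted 941 probes and 0 of the 8 genes. The median of the 8 genes, globins included, was -1.0 and that of all probes -0.60, which turned to 0.72 under normexp and stood at -0.13 without week 3. No list had a gene past the threshold. Above 0 lay 0 of 10 haem synthesis genes (median -1.69), 0 of 10 enzymes and late genes (-1.68), 1 of 10 membrane genes (-1.52), 5 of 12 transcription factors (-0.26), 4 of 9 genes of erythropoietin signalling (-0.15), 6 of 18 iron genes (-0.53) and 0 of 1 other globin (-2.27), against a median of -0.59 over all genes. Beside them lay 5 of 6 T cell (3.69), 5 of 5 B cell (3.48), 4 of 5 lymph node (3.34), 7 of 7 fibroblast (2.11) and 9 of 11 macrophage markers (0.72) above 0, and the part of these cells was not tested. All list values of the interaction include LFC week 3, day 14 and week 18 and were not computed without them.

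Over weeks 3, 6, 9, 12 and 15, with 1 array of each diet per week, the median of Alas2 was 0.20, 0.49, 0.57, -0.70 and -1.17. The later of these weeks were the lower ones, with wide overlap between single arrays. A moderated F-test in limma over the 25 arrays, with diets as blocks, called 0 of the 7 genes tested, and 3201 of 31567 probes (10.1%). At an unadjusted p under 0.05 it counted 9653 probes and 0 of the 7 genes, whose adjusted p-values ran from 0.203 (Alas2) to 0.424 (Epor). The 3 other probes of Hbb-b1 had unadjusted p-values in limma of 0.0164, 0.0620 and 0.0415 (adjusted 0.0896, 0.185 and 0.147). With background correction by normexp 4 of the 7 genes passed, beside 63.5% of all probes. Klf1 was too dim to be tested. Of the other red cell lists, 1 of 10 haem synthesis genes passed, Alad (adjusted p = 0.0154 by limma), as did 2 of 10 enzymes and late genes, Car2 (0.00310) and Cat (0.0431), and 2 of 12 transcription factors, Myb (0.0217) and Bcl11a (0.0329). None passed of 9 membrane genes, 9 genes of erythropoietin signalling, 18 iron genes and 2 other globins, beside 2442 of 22564 genes in all (10.8%). In the marker lists 8 of 11 adipocyte, 6 of 9 neutrophil, 5 of 5 B cell, 7 of 10 cell cycle, 3 of 5 lymph node, 2 of 11 macrophage, 1 of 7 fibroblast and 1 of 5 eosinophil genes passed. None passed of 7 endothelial, 6 T cell, 5 skeletal muscle, 6 myeloid precursor, 7 mast cell and 9 platelet and megakaryocyte genes. The calls depended on week 6, since 0 of all probes passed without it.

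The 2 week 18 arrays with conflicting labels lay within the range of LFC in Alas2 and Slc4a1, with or without the LFC arrays of week 3, day 14 and week 18. On the array with 21710 outlier spots, Hba-a1 stood at 4.34 and Hbb-b1 at 4.25, both saturated and, as recorded, below every LFC array but that of week 3, with Alas2 at 0.24 and Slc4a1 at -0.77, and the other 4 genes had no value. On the other array Hba-a1 stood at 5.88, Hbb-b1 at 7.14 (saturated), Alas2 at 1.74, Slc4a1 at -1.92, Gata1 at -5.02, Epor at -0.82, Tfrc at -1.69 and Klf1 at the dim level of -5.42. Both stood below LFC week 18 in Alas2 and Slc4a1.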

How the data were processed

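One-colour Agilent 44K arrays of 40 samples were read from the deposited scanner files, whose values are processed signal intensities per the file headers, and the authors' deposited table of 40 columns of fold changes was not used beyond its gene symbols. In R 4.3.3, spots marked as outliers were dropped, duplicate spots averaged, intensities taken to log2 and the array's 75th percentile subtracted. Dim values below the array's lowest level well above background were raised to that level. Tests took in probes that were well above background on 50% or more of the arrays of either group, and were run with limma 3.58.1, with p-values adjusted over all probes tested. A gene with several probes is given by the probe with the highest mean level. Pairs come from the time point labels. Pairs on a shared slide held 8 of the 22 arrays of HFC and LFC and 6 of the 12 of HF5 and HFC. No pair of HF20 or HF75 with HFC shared a slide. Scan days were not the same for both arrays of every pair. As a check, the levels of paired arrays relative to their diet correlated above 0.1 in 8 of 11 pairs of HFC and LFC, 6 of 6 of HF5 and HFC, 3 of 5 of HF20 and HFC and 3 of 5 of HF75 and HFC. Late and early arrays were compared with time point as a random block (consensus correlation 0.183). Named genes are the 8 genes, at most 4 genes past the threshold per list and comparison, and the 5 most similar genes per gene. The genes and lists were chosen with earlier results of these data known. Alternatives were no filter, quantile normalization, background correction by normexp (offset 50), dim values not raised, left-out arrays and time points, and other blocks. The fits were tested on simulated arrays with normal noise and known differences. These held no saturated spots, raised dim values or failed arrays, so that the check does not cover such arrays. Array brightness, the 75th percentile of intensity, had a median of 754 over the 38 arrays, with a lowest of 7.81 on LFC week 3 and a highest of 2161 on LFC day 14.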

Additional observations from a re-analysis of the deposited data

Results flagged for a closer look

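In 26 groups of 4 to 10 arrays, the highest and the lowest array of each group were checked for a gap to the nearest other array that was large against the range of the group. Groups of 11 arrays, HFC for each gene and LFC for all but Slc4a1 and Epor, were not checked. In 1 group an array stood apart: Slc4a1 on LFC week 18, at a log2 level of 6.75, where the other 9 LFC arrays with a value ran from -4.27 to 1.1. The gap was 0.513 of the range. The value is saturated and so a lower bound, and 8 of the 9 other arrays were well above background. Chance alone sets apart an array in about 1 in 20 groups.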

How the results depend on the processing

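None of the 8 genes (7 between HF75 and HFC, where Klf1 was not tested) passed the threshold in the 6 comparisons with a direction under any alternative run, and 66 of 729 differences of these genes took the other sign, counting alternatives that gave the same fit once. The probes past the threshold between HF75 and HFC, 270 as reported, were 10550 with no filter on dim probes, 0 without week 3, and 2 with no block for the pairs; leaving out 1 time point at a time gave 0 to 240. The F-test over weeks 3 to 15, 3201 as reported, gave 20043 with normexp, 6041 with quantile normalization, 2016 with no filter, 5705 with dim values not raised, 6772 without LFC week 3 and 1932 without week 9, and leaving out 1 week at a time gave 0 to 5080. With normexp 4 of the 7 genes tested passed it, Alas2, Slc4a1, Gata1 and Tfrc, beside 63.5% of all 31567 probes. Late against early arrays gave 1 probe in place of 0 with no block and 2 without the 3 LFC arrays, an alternative chosen after seeing the data. The interaction gave 6062 with normexp in place of 0.

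Scaling moved the median of all probes. With normexp it was -0.07 for HFC against LFC, -0.29 for HF5, -0.39 for HF20 and -0.23 for HF75 against HFC, -0.22 for late against early and 0.72 for the interaction, and with quantile normalization the last 2 were 0.25 and -0.40. Of the 5 most similar genes, those shared with the reported list were 3 for Hba-a1 and 2 for Hbb-b1 without LFC week 3 and day 14, with quantile normalization and without the 3 LFC arrays alike. Alas2 shared 4 and Slc4a1 at least 4 under each. Gata1 shared 4 without LFC week 3 and day 14, 0 without LFC week 18 as well and 0 with quantile normalization, Epor 2 without 2 arrays, 1 without 3 and 4 with quantile normalization, and Tfrc 3 without 2 arrays, 3 with quantile normalization and 0 without 3. Scan days as a block could not be fitted for HF5, nor slides for HF20 and HF75.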

Other observations

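The means of the other red cell lists had Pearson correlations with Alas2 over the 35 arrays of 0.705 (Spearman 0.696) for enzymes and late genes, 0.684 (0.675) for other globins, which were mostly dim, 0.445 (0.485) for iron genes, 0.240 (0.229) for the membrane, 0.206 (0.166) for erythropoietin signalling, 0.175 (0.224) for haem synthesis and 0.147 (0.148) for transcription factors. Differences between these correlations were not tested.

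The limits are few arrays per diet, 1 array per diet and time point, an unstated number of mice per array, saturated globin spots on up to 23 of 38 arrays and Klf1 and Gata1 near background. Time points and scan days cannot be told apart. Some probes do not separate the adult globin genes.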
